A study of Caenorhabditis elegans with 2 samples.

Results

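The regions described are 656 relaxed peaks of eGFP-NHR-77 whose summits lie in the piRNA gene clusters of chromosome IV of Caenorhabditis elegans. They are all the rows of the relaxed pooled peak list with a summit from 4.5 to 7.0 Mb (the central cluster, 329 peaks) or from 13.5 to 17.2 Mb (the right cluster, 327 peaks), in the ce11 build. The pooled list holds 13500 peaks in all, 2172 of them on chromosome IV, so 1516 peaks lie on the rest of that chromosome. Per the deposited notes the relaxed list includes background, so a member need not be a binding site. Of the 656 members, 116 are in the reproducible list described below. No measured value was used to choose the members. The name of the clusters fits the annotation, since 2816 annotated piRNA genes (18.3% of 15363) lie in the central cluster and 11388 (74.1%) in the right one. They are unevenly spread, with 0 to 220 piRNA genes per 100 kb in the central cluster and 24 to 486 in the right one.

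Chromatin immunoprecipitation with sequencing was done on whole L1 larvae, the first larval stage, of mixed sex and of strain OP353. The strain carries the unc-119(tm4063) mutation on chromosome III and the insertion wgIs353, from which NHR-77 is made as a fusion to the fluorescent protein eGFP. There is 1 group with 2 biological replicates, and each replicate has its own relaxed peak list (21272 and 24201 peaks). A further list holds the 2285 reproducible peaks kept by a comparison of the replicates (IDR). Whole animals were used, so a peak does not say in which cells the protein was bound. The lists give no read totals: depth is unknown, intervals are exact 95% intervals for counting error only, and signal, the authors' score of a peak, has no stated unit and can be compared within a list but not between lists. With 1 group and with neighbouring peaks that are not independent of each other, no p-value was computed, and the main comparisons are set beside the value in each replicate list and, for shares of summits, beside the share of bases that a summit could have fallen on.

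piRNAs are short RNAs that guide the Piwi protein PRG-1 to foreign transcripts in the germ line. In C. elegans each piRNA is transcribed by RNA polymerase II from a small unit of its own, and very many such units are packed on chromosome IV between and inside protein-coding genes. Many of the packed units carry an upstream sequence motif, which a complex with SNPC-4 and PRDE-1 recognises in germ cells. Newly hatched larvae hold very few germ cells. NHR-77 belongs to the nuclear hormone receptors, a large family of transcription factors in this animal.

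The sequences below are chosen examples and do not show a typical summit. Windows of 201 bases around the summit are printed on the plus strand from the RefSeq sequence of WBcel235, the assembly that ce11 names. The first set shows the strongest member of all, beside rpl-20, and 4 strong members that carry the 8-letter word GACGCAGA or its reverse complement TCTGCGTC, which is in capitals. These 4 were picked for the word, which 6 of the 16 strongest members and 41 of the other 640 carry.
rpl-20 and Y17G9B.5, chrIV:4749963-4750163: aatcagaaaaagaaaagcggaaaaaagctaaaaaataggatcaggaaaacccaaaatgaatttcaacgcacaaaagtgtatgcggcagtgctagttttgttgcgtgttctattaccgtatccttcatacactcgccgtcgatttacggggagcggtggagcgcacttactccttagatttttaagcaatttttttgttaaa
skn-1 intron, chrIV:5657148-5657348: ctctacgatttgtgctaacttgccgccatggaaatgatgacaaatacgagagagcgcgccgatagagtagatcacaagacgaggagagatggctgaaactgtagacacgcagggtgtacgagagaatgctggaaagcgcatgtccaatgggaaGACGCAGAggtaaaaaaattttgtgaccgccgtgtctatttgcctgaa
Y57G11C.3 and mrps-7, chrIV:14767796-14767996: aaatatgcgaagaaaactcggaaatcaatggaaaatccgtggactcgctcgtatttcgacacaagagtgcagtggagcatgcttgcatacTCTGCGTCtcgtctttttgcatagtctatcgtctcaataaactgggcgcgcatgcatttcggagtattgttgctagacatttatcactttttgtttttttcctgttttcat
ntl-11, chrIV:15471521-15471721: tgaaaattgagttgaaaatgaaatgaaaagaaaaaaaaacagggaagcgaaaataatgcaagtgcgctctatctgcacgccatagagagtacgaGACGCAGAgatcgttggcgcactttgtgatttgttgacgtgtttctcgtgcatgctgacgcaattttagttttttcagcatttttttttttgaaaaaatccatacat
Y73F8A.27, chrIV:15472519-15472719: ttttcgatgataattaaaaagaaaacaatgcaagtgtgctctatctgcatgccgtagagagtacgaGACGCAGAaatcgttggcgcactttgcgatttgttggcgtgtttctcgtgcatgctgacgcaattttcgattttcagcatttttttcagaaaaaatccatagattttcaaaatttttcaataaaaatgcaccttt
The next set shows the strongest member that lies close to a piRNA and outside promoters, with the bases annotated as 21ur-13200 in capitals. That piRNA is on the minus strand, so its bases appear as the reverse complement.
21ur-13200, chrIV:16180966-16181166: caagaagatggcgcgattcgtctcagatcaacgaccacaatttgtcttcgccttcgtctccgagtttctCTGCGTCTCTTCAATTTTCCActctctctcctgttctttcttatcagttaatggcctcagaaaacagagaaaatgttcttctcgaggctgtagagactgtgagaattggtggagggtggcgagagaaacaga
The last set shows piRNA genes that have both a member summit within 100 bp and the upstream motif core CTGTTTCA. Of the 160 cluster piRNA genes with a pooled summit this near, 52 have the core. The one with the highest signal, 21ur-6071 (43.0), is not among those printed. The genes below are printed 5′ to 3′ on their own strand from 75 bases before the 5′ end, with the core and the 21-base piRNA in capitals.
21ur-1966, minus strand, chrIV:5512154-5512249: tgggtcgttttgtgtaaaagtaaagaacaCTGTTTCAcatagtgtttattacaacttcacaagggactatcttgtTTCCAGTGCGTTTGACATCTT
21ur-4200, minus strand, chrIV:6049077-6049172: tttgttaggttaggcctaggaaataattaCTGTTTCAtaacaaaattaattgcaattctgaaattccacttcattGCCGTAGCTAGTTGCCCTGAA
21ur-703, plus strand, chrIV:15618031-15618126: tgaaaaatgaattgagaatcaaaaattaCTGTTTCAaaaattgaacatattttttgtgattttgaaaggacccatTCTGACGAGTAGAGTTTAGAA

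Peaks were sparser in the right cluster than in the central cluster or on the rest of chromosome IV. The pooled list had 131.6 peaks per Mb in the central cluster (interval 118 to 147), 88.4 in the right cluster (79.1 to 98.5) and 134 on the rest of the chromosome (128 to 141). Replicate 1 had 192 peaks per Mb in the central cluster, 160 in the right cluster and 209 elsewhere on chromosome IV. Replicate 2 had 234, 198 and 233 in the same order. The right cluster was thus the lowest of the 3 in every list, while the central cluster was below the rest in replicate 1 and level with it in replicate 2. Over both replicates the density was 213 ± 30.3 per Mb in the central cluster, 179 ± 26.9 in the right one and 221 ± 16.7 elsewhere (mean ± SD, n = 2). These SDs hold a difference in list length between the replicates as well as biological spread. A segment of the left arm that mirrors the right cluster in place and length had 118 peaks per Mb (107 to 129), above the right cluster by more than the counting error in the pooled list. In replicate 1 that segment had 198 (184 to 212) against 160 (147 to 173) in the right cluster, and in replicate 2 it had 205 (191 to 220) against 198 (184 to 213), where the intervals overlap. The same fractional part of the 4 other autosomes had 123 per Mb as a whole, but single chromosomes ran from 65.1 to 202, so the right cluster lay within the range of other autosome arms. The central cluster, at 131.6, lay below the lowest of the other autosome centres, which ran from 137 to 176, although its interval overlaps that value.

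**Figure D1:**
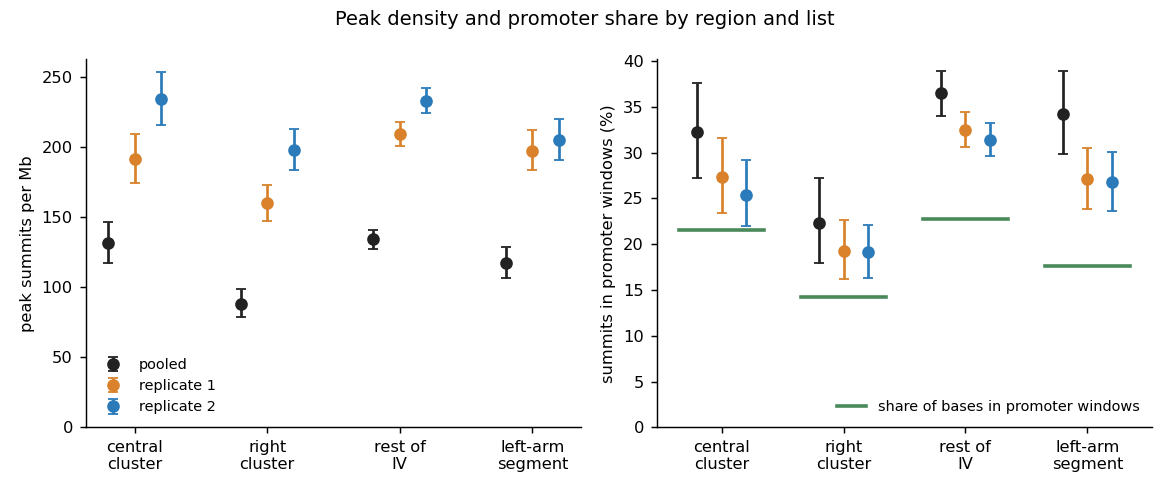
Peak summits per Mb (left) and percent of summits in protein-coding promoter windows (right) for both clusters, the rest of chromosome IV and the mirrored left-arm segment. Points are the pooled list and each replicate list with exact 95% intervals, and green lines are the share of bases in promoter windows. The right cluster is lowest in both panels in all 3 lists.

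The members were spread along both clusters with no local match to the density of piRNA genes. Bins of 100 kb held 3 to 25 members in the central cluster (median 14, 25 bins) and 3 to 18 in the right cluster (median 8, 37 bins). The fullest central bin, 5.6 to 5.7 Mb, had 25 members, 143 piRNA genes and 20 protein-coding starts. The emptiest, 5.4 to 5.5 Mb, had 3 members with nearly as many piRNA genes (141) and coding starts (19). In the right cluster the fullest bin was 13.8 to 13.9 Mb with 18 members and 287 piRNA genes, and the emptiest was 13.6 to 13.7 Mb with 3 members and 221 piRNA genes. Replicate lists gave 18 and 20 summits in that emptiest bin, so it was the emptiest in the pooled list only. Spearman's rho between members and piRNA genes was -0.14 over the central bins and -0.070 over the right bins, given as a description of bins that share libraries and base composition. The replicate lists gave 0.061 and 0.20 over the central bins, where the sign turned, and -0.060 and -0.079 over the right bins. With protein-coding starts the pooled rho was -0.040 and -0.036. In the replicate lists it was -0.27 and -0.17 over the central bins and 0.17 and 0.24 over the right bins.

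**Figure D2:**
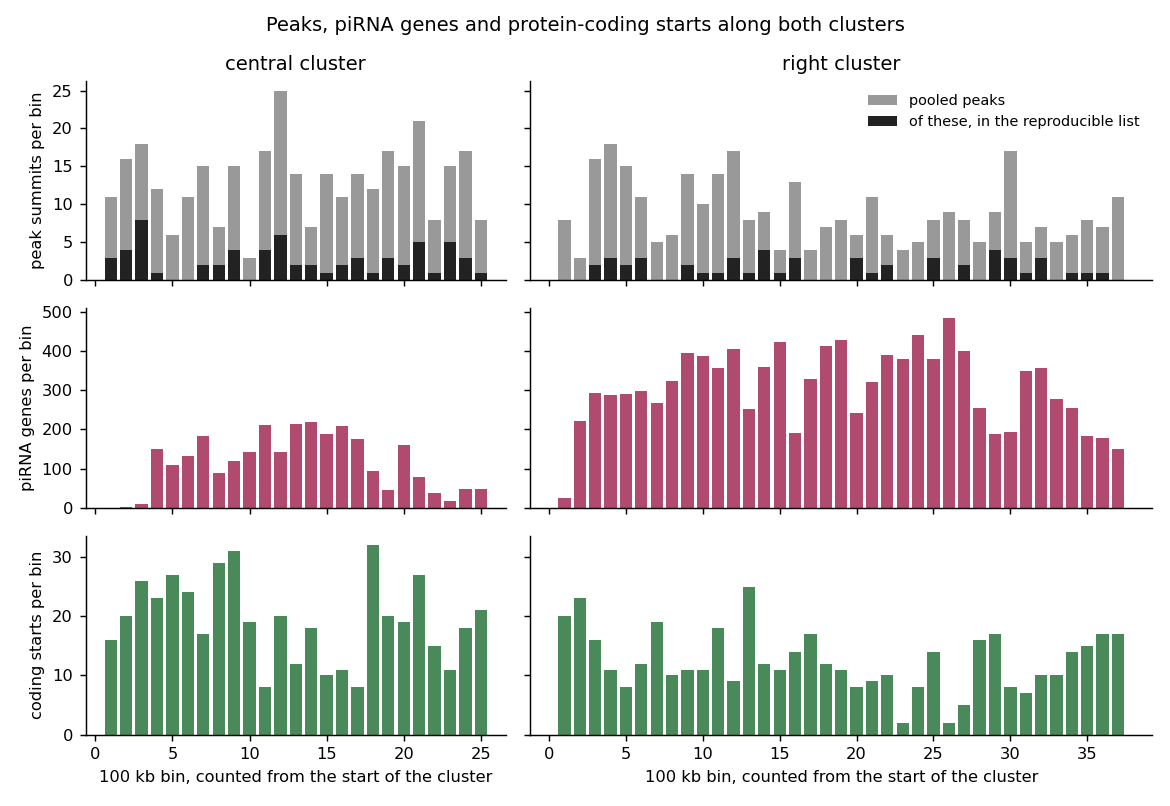
Counts per 100 kb bin along the central (25 bins) and right (37 bins) clusters, with pooled peaks in grey and those in the reproducible list in black (top), piRNA genes (middle) and protein-coding starts (bottom). Bins with 3 members and with 25 members hold similar numbers of piRNA genes in the central cluster, 141 and 143.

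A smaller share of members than of other chromosome IV peaks lay in promoters of protein-coding genes, most clearly in the right cluster, where promoter windows are also a smaller share of bases. A promoter window here runs from 1000 bp upstream to 250 bp downstream of a gene's start, the outermost annotated 5′ end of the gene. Starts of shorter transcripts inside a gene were not used, here or in distances to coding starts. Of all pooled peaks, 35.1% had a summit in such a window. The share was 32.2% in the central cluster (106 of 329, 27.2 to 37.6), 22.3% in the right cluster (73 of 327, 17.9 to 27.2) and 36.5% on the rest of chromosome IV (553 of 1516, 34.0 to 39.0). Replicate 1 gave 27.3%, 19.3% and 32.5% for these regions, and replicate 2 gave 25.4%, 19.1% and 31.4%. The order of the 3 regions was the same in every list. Promoter windows cover 21.6% of the central cluster, 14.2% of the right cluster and 22.8% of the rest. The share of summits over the share of bases was 1.49 in the central cluster, 1.57 in the right one and 1.60 elsewhere in the pooled list. In replicate 1 these ratios were 1.27, 1.35 and 1.43, and in replicate 2 they were 1.18, 1.34 and 1.38. Summits were thus more frequent in promoters than bases in all 3 regions and lists, with the lowest ratio in the central cluster. Outside promoters the right cluster was still sparse, with 80.0 pooled summits per Mb of non-promoter bases against 114 in the central cluster and 110 elsewhere. The difference between the clusters changes sign among the reproducible peaks, where the promoter share of the right cluster was higher by 6.37 percentage points. That rests on few peaks, 26 of 51 right against 29 of 65 central, and no interval was computed for it.

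Seen from the genes, a pooled summit lay in the promoter of 26.5% of all 19973 nuclear protein-coding genes. In the central cluster this held for 118 of 482 genes (24.5%, 20.7 to 28.6), in the right cluster for 80 of 459 (17.4%, 14.1 to 21.2) and on the rest of chromosome IV for 621 of 2340 (26.5%, 24.8 to 28.4). In this list the right cluster's interval lies below that of the rest. Replicate 1 gave 28.8% (24.8 to 33.1), 26.4% (22.4 to 30.6) and 35.7% (33.8 to 37.7), with both clusters below the rest. Replicate 2 gave 32.2% (28.0 to 36.5), 31.4% (27.2 to 35.8) and 37.4% (35.4 to 39.3), where the right cluster's interval overlaps that of the rest. The median distance from a summit to the nearest coding start was 1666 bp in the central cluster, 1994 bp in the right cluster and 1215 bp elsewhere. Replicate medians over both clusters were 2019 and 2047 bp, and over the rest 1272 and 1336 bp.

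In the pooled list, summits of both clusters fell alike within genes, on unlike shares of bases. In the central cluster 186 members were intergenic (56.5%, 51.0 to 62.0) on 41.8% of bases, and 34 were in coding exons (10.3%, 7.26 to 14.1) on 22.7% of bases. The rest of chromosome IV resembled it, with 50.3% intergenic summits on 34.5% of bases and 12.3% in coding exons on 25.7%. In the right cluster the shares were close to those of bases, with 181 intergenic members (55.4%) on 56.6% of bases and 45 in coding exons (13.8%) on 13.2%. Replicate 1 gave 47.2% intergenic summits in the central cluster (42.6 to 51.8) and 52.5% in the right one (48.4 to 56.6). Replicate 2 gave 47.8% (43.7 to 51.9) and 55.8% (52.1 to 59.4), where the right cluster was higher and the intervals do not overlap. Introns held 89 central members (27.1%) and 91 right members (27.8%). Of the 79 members in coding exons, 1 is in the reproducible list (1.27%), against 27 of 180 in introns (15%) and 82 of 367 in intergenic sequence (22.3%), where all pooled peaks give 16.9%. The rest of chromosome IV had the same order, with 2.14%, 12.3% and 23.5%. Nearly all members, 650 of 656, are 380 bp wide, and 31 overlap the next member along the chromosome.

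The strongest members were found at ordinary gene promoters, as defined above, and in long introns. Whether the intron summits lie at starts of shorter transcripts was not examined. The highest signal of the central cluster, 560 in the pooled list with 320 in replicate 1 and 234 in replicate 2, lay between the divergent starts of rpl-20, a ribosomal protein gene, and Y17G9B.5. The next, with 350 (191 and 153), lay upstream of vha-8, a subunit of the proton-pumping vacuolar ATPase, and of C17H12.2. These summits were 17661 and 11085 bp from the nearest piRNA 5′ end. They lay in 100 kb bins with 8 and 17 piRNA genes, where the median of the cluster is 118. Both peaks were also the strongest members of this cluster in each replicate by a wide margin over the next member, at 222. The latter lay 3136 bp inside skn-1, the gene of a stress-response transcription factor, with replicate signals of 102 and 111. It was followed by the promoter of sqd-1, an RNA-binding protein gene, with 199 (110 and 90.3) and by that of W03F8.4 with 192 (94.7 and 95.3). Introns of fkh-7, a forkhead factor gene, and of nhr-46, a nuclear hormone receptor gene, gave 161 (79.4 and 79.8) and 153 (82.7 and 71.4). These intron summits lie 256 bp upstream of 21ur-8766 and 266 bp upstream of 21ur-10289, just outside the 100 bp neighbourhood used below. The last of the 8 strongest central members was shared by dnj-11, a DnaJ-domain protein gene, and F38A5.2, with 142 (63.8 and 79.9).

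In the right cluster the strongest member had a pooled signal of 287 (162 and 119 in the replicates) and lay upstream of dld-1, a subunit of mitochondrial dehydrogenase complexes. The promoter of ntl-11, a part of the CCR4-NOT deadenylase complex, gave 267 (160 and 107). The divergent pair Y57G11C.3 and mrps-7, a mitochondrial ribosomal protein gene, gave 234.9 (125 and 109). All 8 strongest members of the right cluster were in promoters, against 5 of 8 in the central cluster. The others were set-26, a SET-domain gene, and tsr-2 with 195 (107 and 84.0), Y105C5A.1268 and Y105C5A.1272 with 187 (110 and 80.3), and rps-18 with sec-61.A, genes of a ribosomal protein and of the protein-conducting channel of the endoplasmic reticulum, with 173 (98.7 and 70.9). The heterochronic gene lin-66 had 165 (94.9 and 69.0), and Y73F8A.27 had 164 (93.3 and 76.9). None of the 16 strongest members lay within 100 bp of a piRNA 5′ end.

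Median signals differed little in the pooled list, with 30.2 in the central cluster, 29.8 in the right cluster and 30.5 on the rest of chromosome IV. In replicate 1 they were 14.8, 13.5 and 14.6, with the right cluster lower, at a median percentile rank in that list of 38.6 against 51.2 and 49.6. In replicate 2 they were 14.8, 14.1 and 14.5. Of all pooled peaks 16.9% are in the reproducible list. Among the members 116 are (17.7%, 14.8 to 20.8), 65 of them central (19.8%) and 51 right (15.6%), and on the rest of the chromosome 253 (16.7%). These shares are near the background and do not set the clusters apart. The reproducible list follows pooled signal: its weakest member has a signal of 58.8, and the strongest member outside it has 58.6. Of all pooled peaks 63.7% are overlapped by a peak of both replicates, and so are 403 members (61.4%, 57.6 to 65.2), with 9 members overlapped by neither replicate. All 116 reproducible members are overlapped in both, and their replicate signals ranked alike (Spearman's rho 0.68, n = 116). That list was itself made by comparing the replicates, so this likeness is no separate check of it. For the 287 other members found in both replicates, rho was 0.27. Their pooled signals span a narrower range, none above 58.6, so the 2 rho values are not on equal terms.

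Close to piRNA genes the pooled list was thin. A summit lay within 100 bp of a piRNA 5′ end for 111 of the 656 members (16.9%, 14.1 to 20.01), while such positions make up 29.8% of the cluster bases. In the central cluster the figures were 32 members (9.73%) on 17.0% of bases, and in the right cluster 79 members (24.2%) on 38.5%. The replicate lists came closer to the share of bases, with 21.4% in replicate 1 (19.0 to 24.0) and 27.4% in replicate 2 (25.1 to 29.9). The interval of replicate 2 reaches the 29.8% of bases, so the thinning rests on the pooled list and replicate 1, and the difference from bases shrank from -12.9 percentage points in the pooled list to -8.41 in replicate 1 and -2.35 in replicate 2. When each replicate list was limited to as many of its strongest peaks as the pooled list holds, the difference was -11.8 and -9.40 points.

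**Figure D3:**
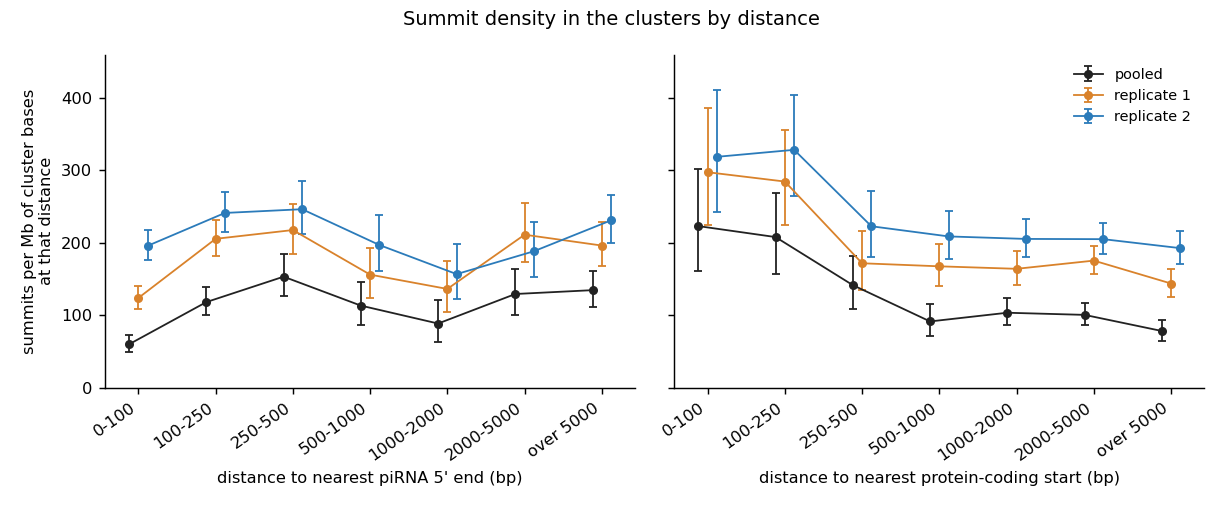
Summits per Mb of cluster bases by distance to the nearest piRNA 5′ end (left) and to the nearest protein-coding start (right), for the pooled list and each replicate list with exact 95% intervals. The pooled density is lowest within 100 bp of a piRNA, 60.1 per Mb, and highest within 100 bp of a coding start, 223 per Mb.

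By distance, the pooled density in the clusters was 60.1 summits per Mb within 100 bp of a piRNA 5′ end (49.4 to 72.4), 118 from 100 to 250 bp, 153 from 250 to 500 bp, 113 from 500 to 1000 bp, 88.7 from 1000 to 2000 bp, 129 from 2000 to 5000 bp and 135 beyond 5000 bp. In replicate 1 the nearest class was also the lowest, with 124 per Mb against 136 to 218 in the others. In replicate 2 it had 196 against 241 in the next, but was not the lowest, since there were 157 from 1000 to 2000 bp and 188 from 2000 to 5000 bp. Around protein-coding starts the order ran the other way, with 223 per Mb within 100 bp (161 to 302), 208 from 100 to 250 bp and 91.6 from 500 to 1000 bp. On the rest of chromosome IV the corresponding values around coding starts were 282, 263 and 112.

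Members near piRNAs were weak. Their median pooled signal was 26.4 (highest 117), against 31.8 for the other 545 members. The lowest signal in the whole pooled list is 23.5. Only 2 of the 111 are in the reproducible list (1.80%, 0.219 to 6.36), compared with 114 of the 545 others (20.9%, 17.6 to 24.6). With the members divided by signal into 4 classes of equal size, the pooled share near a piRNA went from 32.3% in the lowest class through 20.7% and 12.2% to 2.44% in the highest. Replicate 1 had 23.1%, 33.6%, 22.4% and 6.37%, and replicate 2 had 35.8%, 35.2%, 28.2% and 10.6%. The highest class was thus the poorest in piRNA neighbourhoods in all 3 lists. For promoters it was the richest, with 42.1% in the pooled list, 34.8% in replicate 1 and 31.3% in replicate 2. Median GC content also rose over the pooled classes, from 31.8% in the lowest to 42.3% in the highest. No comparison of signal at equal GC content is given here. Members in coding exons were weak too, with a median pooled signal of 27.2. Fewer of the near-piRNA members were overlapped by both replicates, 55 of 111 (49.5%, 39.9 to 59.2) against 348 of 545 (63.9%, 59.7 to 67.9). Weak members were overlapped less often in general: of all 540 members outside the reproducible list 287 were overlapped by both (53.1%, 48.8 to 57.4).

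**Figure D4:**
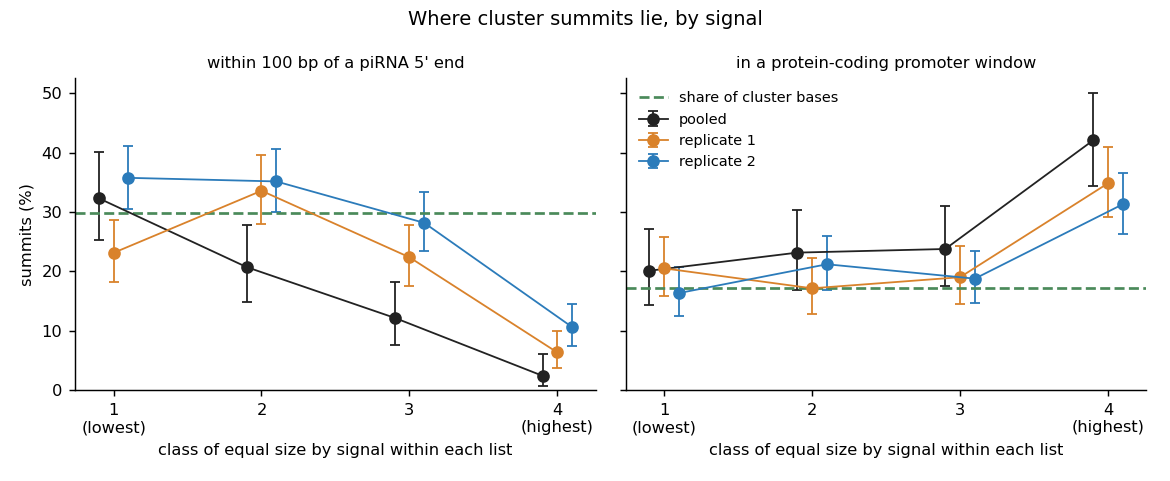
Percent of cluster summits within 100 bp of a piRNA 5′ end (left) and in protein-coding promoter windows (right), in 4 classes of equal size by signal within the pooled list and each replicate list, with exact 95% intervals. Dashed lines are the shares of cluster bases, 29.8% and 17.2%. The top class is lowest on the left, at 2.44%, 6.37% and 10.6%, and highest on the right.

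The strongest near-piRNA member outside promoters had a pooled signal of 117 (56.7 in replicate 1 and 53.5 in replicate 2). Its summit was 11 bp upstream of the 5′ end of 21ur-13200 and 3555 bp from the start of the nearest protein-coding gene, WBGene00194929. It is in the reproducible list. The other reproducible near-piRNA member, with 82.6 (46.0 and 37.8), lay 92 bp upstream of 21ur-11261 and also in the promoter shared by F41H10.4 and hda-6, a histone deacetylase gene. It is outside the rule for named genes and was singled out after its values were seen. Below these, 21ur-9319 in an intron of lntl-1 had 49.0 (21.9 and 25.2), 21ur-13922 near flp-17, a neuropeptide gene, had 43.0 (17.0 and 25.9), 21ur-14426 in an intron of C01G5.25 had 41.6 (17.6 and 25.3) and 21ur-13379 in an intron of nhr-46 had 40.7 (19.8 and 18.1). All 4 are outside the reproducible list.

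Counted by gene, a pooled summit lay within 100 bp of the 5′ end of 1.22% of all piRNA genes. In the clusters this held for 160 of 14204 genes (1.13%, 0.959 to 1.31), 40 in the central cluster (1.42%) and 120 in the right one (1.05%), and elsewhere on chromosome IV for 11 of 510 (2.16%, 1.08 to 3.83). The replicate lists reached 2.27% and 3.94% of the cluster genes, and the reproducible list 2 genes. Neighbouring piRNA genes can share a summit, as 21ur-1966 and 21ur-10540 do, and there are 111 near-piRNA members beside these 160 genes. The genes are thus not independent, and the intervals of these gene counts are likely too narrow. The upstream motif core made no difference that these counts could show. Of the 4952 cluster piRNA genes with the core 25 to 75 bp upstream of the 5′ end, 52 had a summit (1.05%, 0.785 to 1.37), and of the 9252 without it 108 had one (1.17%, 0.959 to 1.41). The shares with and without the core were 2.38% and 2.20% in replicate 1 and 3.59% and 4.12% in replicate 2.

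GC content moved with these results. The median GC content of the 201-base windows was 36.8% around the members and 31.8% over consecutive windows that cover the clusters, and around near-piRNA members it was 29.4%. In the rest of chromosome IV it was 37.8% around peaks and 35.3% over all windows. The pooled density rose with GC content in both places. In the clusters it was 52.1 summits per Mb of bases with GC content below 30% and 200 per Mb at 40% or more, and on the rest of the chromosome it was 61.6 and 199. The central cluster has 32.8% of its bases in the lowest class, the right cluster 46.9% and the rest 22.9%. At bases below 30% GC, the pooled list had 48.9 summits per Mb near piRNAs (37.5 to 62.7) and 55.3 away from them (43.2 to 69.7). From 30 to 35% it had 92.2 (65.3 to 127) and 100.5 (82.5 to 121). These classes hold 62 and 38 of the 111 near-piRNA members, and within them the intervals overlap widely. From 35 to 40% the density near piRNAs was lower, 70.6 (32.3 to 134, 9 summits) against 159 (134 to 186). At 40% or more it was 49.9 (6.05 to 180, 2 summits) against 206 (179 to 234.8). In replicate 1 these last comparisons went the same way, 118 (65.9 to 194) against 257 (225 to 291) and 175 (70.2 to 360) against 285 (254 to 319). In replicate 2 they were 259 against 253 and 125 (40.5 to 291) against 265.

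With cluster bases weighted to the GC classes of the members, 20.3% of bases would be near a piRNA, and the difference of the pooled share from that was -3.42 percentage points instead of -12.9. For replicate 1 it was -0.88 instead of -8.41, and for replicate 2 it was 0.998 instead of -2.35. The density of the clusters against the rest of chromosome IV, a log2 ratio of -0.34 in the pooled list, became -0.12 with the rest weighted to the GC content of the clusters. In replicate 1 it went from -0.28 to -0.10 and in replicate 2 from -0.13 to -0.019. The log2 ratio of the right to the central cluster went from -0.57 to -0.41 in the pooled list, from -0.26 to -0.080 in replicate 1 and from -0.24 to -0.16 in replicate 2. The weighting was chosen after the data were seen. Whether GC content sets the peaks or only goes with them was not tested, and promoters, piRNA genes and GC content vary together along the clusters.

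**Figure D5:**
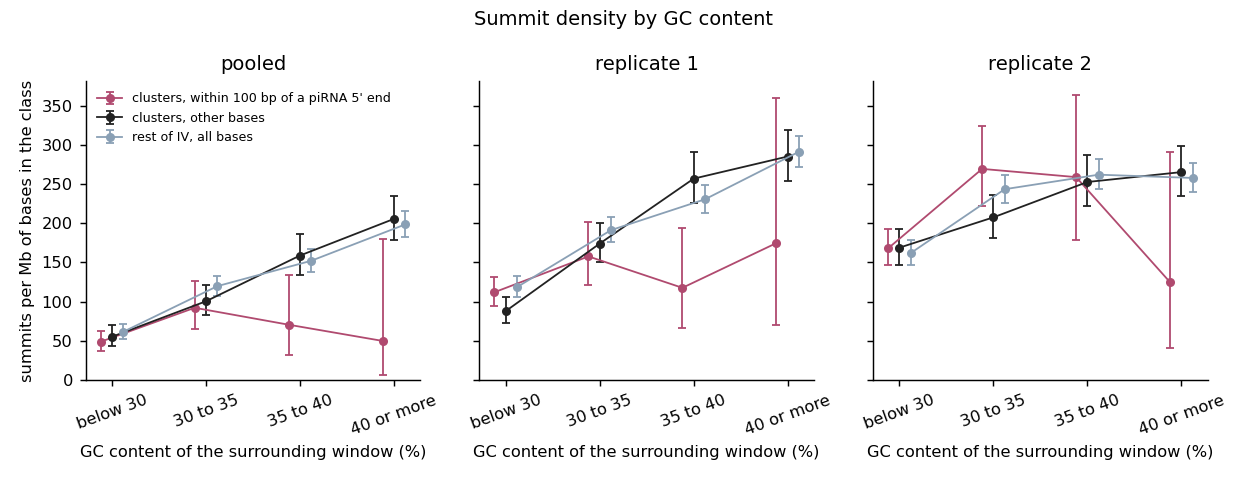
Summits per Mb of bases by GC content of the surrounding 201 bases, in the pooled list and each replicate list, with exact 95% intervals. Cluster bases within 100 bp of a piRNA 5′ end (red), other cluster bases (black) and the rest of chromosome IV (blue-grey) have overlapping intervals in the 2 lower classes of the pooled list, which hold 62 and 38 of the 111 near-piRNA members. In replicate 2 the density near piRNAs is higher at 30 to 35% GC, 269 against 208 at other cluster bases.

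The piRNA motif core was less frequent around pooled summits of the right cluster than over its bases, while in the central cluster and in replicate 2 the intervals reach the share of consecutive windows. CTGTTTCA, searched on both strands within 100 bases of the summit, was present in 1.5% of all pooled windows, in 23 of 329 central members (6.99%, 4.48 to 10.3) and in 34 of 327 right members (10.4%, 7.31 to 14.2). Consecutive windows had it in 10.01% of the central and 17.8% of the right cluster, and in 1.55% of the rest of chromosome IV. Over both clusters replicate 1 gave 10.6% (8.86 to 12.6) and replicate 2 gave 13.6% (11.8 to 15.6), against 14.7% of consecutive windows. Of the 111 near-piRNA members, 34 had the core (30.6%, 22.2 to 40.1). Median GC content in the right cluster was 35.8% around members and 30.8% over consecutive windows. The core was not compared at equal GC content. The strongest member with the core in the right cluster was in the promoter of fbxa-83, an F-box gene, with a signal of 130 (68.0 and 60.8). The strongest in the central cluster lay in an intron of fkh-7 with 85.6 (47.3 and 38.0). Both are reproducible. The next ones were near Y4C6B.2 with 38.9 (17.6 and 22.3), near srv-22 with 38.1 (18.8 and 15.7), between itsn-1 and uaf-2 with 46.2 (25.8 and 17.7), and near Y7A9D.1 with 35.4 (12.6 and 20.5).

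Another word was shared by many strong members. GACGCAGA was the 8-letter word, read on both strands, whose share among the 16 strongest members exceeded its share of consecutive cluster windows by most. It is in 6 of these 16 windows, at skn-1, fkh-7, ntl-11, Y57G11C.3 with mrps-7, lin-66 and Y73F8A.27, and this count chose it. The windows of ntl-11 and Y73F8A.27 are similar copies 998 bp apart (72.8% of aligned bases match), so these 6 are not all separate occurrences. In the 640 members that did not choose it, 41 windows had it (6.41%, 4.64 to 8.59), against 0.885% of consecutive cluster windows and 2.57% of those with GC content of 40% or more. Among these 640, it was in 16 of the 100 reproducible members (16%, 9.43 to 24.7) and in 25 of the 540 others (4.63%, 3.02 to 6.76). Peaks on the rest of chromosome IV had it about as often, 90 of 1516 (5.94%, 4.80 to 7.25), with 38 of 253 among the reproducible ones (15.0%). The word is therefore no mark of the clusters. Only 1 of the 111 near-piRNA members had it (0.901%, 0.0228 to 4.92), the one at 21ur-13200, where it overlaps the 3′ end of the piRNA in the window printed above. Whether any protein binds the word cannot be told from these lists.

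Genes of the piRNA pathway were looked up from a list of 24 taken from general knowledge. Of these, 22 were matched to the annotation (all but prg-2 and tofu-3), with 0 of them in the clusters, and 7 had a pooled summit in the promoter, beside the 26.5% of all protein-coding genes. tofu-1, needed for piRNA production, had a signal of 71.0 (31.8 and 40.7) and was the only reproducible one. Of all protein-coding genes, 8.60% had a reproducible summit in the promoter. snpc-4, whose protein occupies the clusters, had 53.6 (30.8 and 19.8). pid-3, a piRNA-processing gene, had 52.7 (24.4 and 28.6), tost-1, of the same complex, had 43.8 (20.9 and 27.6), and ints-11, a subunit of the Integrator complex, had 44.3 (34.6 and 22.6). tofu-6 had 30.5 and hrde-1, a nuclear Argonaute that acts after piRNAs, had 25.1, each with a peak in replicate 1 only. The summits at tofu-1, tost-1, hrde-1 and ints-11 each lie in 2 promoter windows, so they are shared with another gene. prg-1 and prde-1 had no pooled summit in the promoter.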

How the data were processed

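ChIP-seq of eGFP-NHR-77 was done by the authors in 2 biological replicates of whole L1 larvae. 4 of the deposited ce11 peak lists were used (pooled, each replicate, reproducible). In the deposited lists the signal is the authors' value for each peak, whose unit is not stated, and the summit is an offset from the peak's start. Per the deposited notes the relaxed lists include background as input for IDR. The sources used here name no aligner, peak caller, tool version or IDR threshold.

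Summits were placed on the Ensembl WBcel235 annotation, release 115, and read against the RefSeq sequence of the same assembly, with Python 3.11.15, numpy 2.4.6, pandas 2.3.3 and scipy 1.17.1. Peaks overlapped when they shared at least 1 bp. Counts per Mb have exact Poisson intervals and shares have Clopper-Pearson intervals. The assignment steps were tested on simulated positions. Genes were named by rule: the 8 strongest members of each cluster found in both replicates, the 5 strongest near a piRNA outside promoters, the 3 strongest per cluster with the motif core, the fullest and emptiest bins, and pathway genes with a promoter summit. The members and lists were chosen with earlier results of these data known. Alternatives were each replicate left out, other list subsets, cluster edges, promoter and piRNA windows, and other reference regions.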

Additional observations from a re-analysis of the deposited data

How the results depend on the processing

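Clusters against the rest of chromosome IV. The density (log2 ratio -0.34) was -0.28 to -0.13 with each replicate left out and the whole list of the other used, -0.40 to -0.20 with that list shortened to the pooled number, and -0.12 with GC weighting. The promoter share (-9.19 percentage points) was -9.64 to -9.51 without a replicate (shortened -10.54 to -10.53). It was -10.7 for reproducible peaks, -10.2 and -5.80 with narrowed and widened clusters, -5.60 and -10.6 with shorter and longer promoters, -7.06 with promoters of all classes except piRNA, and -7.45 against other autosomes. The median signal (log2 ratio -0.021) was -0.052 to -0.015 without a replicate (shortened -0.027 to -0.0091) and turned to 0.0047 for reproducible peaks. The distance to coding starts (576 bp) was 711 to 747 without a replicate (shortened 676 to 747), 391 for reproducible peaks, 524 for the others and 365 with widened clusters. The near-piRNA difference (-12.9 points) was -8.41 to -2.35 without a replicate (shortened -11.8 to -9.40), -28.1 for reproducible peaks, -7.84 within 50 bp and -3.42 with GC weighting.

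Right against central cluster. The density (-0.57) was -0.26 to -0.24 without a replicate (shortened -0.52 to -0.40), -0.92 for reproducible peaks, -0.50 for the others, -0.50 and -0.53 with narrowed and widened clusters, -0.41 against the left-arm segment and -0.41 with GC weighting. The promoter share (-9.89 points) was -8.09 to -6.33 without a replicate (shortened -9.74 to -4.20). It turned to 6.37 for reproducible peaks (26 of 51 right against 29 of 65 central). It was -12.1 for the others, -6.58 with shorter promoters, -15.9 with promoters of all classes except piRNA and -11.9 against the left-arm segment. The median signal (-0.019) was -0.13 to -0.069 without a replicate (shortened -0.16 to -0.084), -0.11 for reproducible peaks, and turned to 0.012 with narrowed clusters and 0.020 against the left-arm segment. The cause of these shifts was not tested.

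Of 91 alternatives, 38 stayed within the spread between the replicates (for the share in the reproducible list, its counting interval), 49 kept the sign but differed by more than that, towards 0 or away from it, and 4 turned the sign. The 38 include the setting of 1 peak per interval. It left every value unchanged, as no member interval was repeated, and so tested nothing. The shortened lists, the left-arm segment and the GC weighting were chosen after the data were seen. No paired analysis was possible because there is 1 group. The depth is unknown, so a thinner list cannot be told apart from weaker binding.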

Other observations

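Other small RNA genes lie in the clusters, and some held members. Windows of tRNA genes, taken from 1000 bp upstream to 250 bp downstream of the start as for promoters, held 7 members in the central cluster (9 tRNA genes) and 16 in the right cluster (32 tRNA genes), 5 and 14 of them outside protein-coding promoters. These are 2.13% (0.860 to 4.33) and 4.89% (2.82 to 7.82) of the members on 0.450% and 0.988% of the bases, while the rest of chromosome IV had 1.72% (1.12 to 2.50) on 0.311%. The replicate lists gave 1.25% and 1.37% in the central cluster and 3.38% and 2.32% in the right one. Windows of snoRNA genes held 3 and 4 members, 0.912% (0.188 to 2.64) and 1.22% (0.334 to 3.10), on 0.500% and 0.270% of bases, which the central interval includes. Of these, 2 central members and 1 right member lay outside protein-coding promoters. The replicate lists gave 1.25% and 0.683% in the central cluster. In the right cluster they gave 0.676% (0.184 to 1.72) and 0.546% (0.149 to 1.39), and both intervals include 0.270%. Windows of genes annotated as ncRNA held 54 members of the central cluster (16.4% on 9.54% of bases), 27 of the right cluster (8.26% on 2.62%) and 12.9% of the summits on the rest of the chromosome (on 6.83%). In the replicate lists these ncRNA shares were 13.2% and 13.0% in the central cluster, and 5.41% and 4.91% in the right one.

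Some members lie on repeated sequence. Among the 656 windows, 22 share a stretch of at least 25 bases with the window of another member that does not overlap theirs (3.35%). They form 14 pairs, and 13 of the 22 are reproducible, against 17.7% of all members and 16.9% of all pooled peaks. None of them is near a piRNA, against 16.9% of all members. The search covered member windows only, so no share for peaks elsewhere stands beside these. The strongest pair is ntl-11 and Y73F8A.27, with signals of 267 and 164 at summits 998 bp apart, whose windows match at 126 of 173 aligned bases on the same strand (72.8%). How the authors treated reads with several matches is not given in the sources used here. This search was made after the data were seen.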
